A study of Drosophila melanogaster with 2 samples.

Results

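Transfer RNAs (tRNAs) are the adaptors that carry amino acids to the ribosome, and their genes are short units transcribed by RNA polymerase III (Pol III). The open chromatin of these genes was described in Drosophila S2 cells, a cultured line that came from late embryos and resembles blood cells. The genes were all those that the RefSeq gene table gives the biotype tRNA on chromosomes 4 and X and on the arms of chromosomes 2 and 3 (2L, 2R, 3L, 3R). That rule gave 290 genes among the 17684 genes of those arms, and chromosome 4 held none of them. The table has 312 tRNA genes in all, of which the 22 of the mitochondrial genome were left out. A tRNA gene counted as having a peak when a peak interval overlapped the gene plus 250 bp on each side by 1 bp or more, and 346 of the 35535 peaks of the list met that rule.

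A tRNA gene carries its promoter inside the transcribed sequence, as an A box and a B box that the factor TFIIIC binds. TFIIIC then places TFIIIB just before the gene, and TFIIIB recruits Pol III. In flies the TBP-related factor Trf works together with Brf in TFIIIB. Many copies of a tRNA gene can exist, and RefSeq symbols give the amino acid, the anticodon, the number of a group of identical mature sequences (here called a family) and the number of the copy.

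ATAC-seq, in which the Tn5 transposase cuts and tags accessible DNA, had been done on 2 libraries of S2 cells grown at 25°C, for which the labels name no treatment. Each library came from 2000000 cells and 12 cycles of PCR, and the labels do not mention separate cultures. Both libraries form 1 group and a single list of peaks covers it, so no value below has a replicate error and no test was made. Pooling of the libraries ahead of peak calling is not stated in the labels. Each line of the list is a summit with its interval, and is called a peak here. Height is given as the pileup, the number of fragments over the summit, recovered as a whole number for 35535 of 35535 lines, and as the authors' fold over the local background that their caller estimated. The depth of each library was unknown, the lowest local background in the list was 9.91 fragments, and intervals on a pileup are exact Poisson intervals of 95% that cover counting error only. Of the genes chosen to mark blood cells 10 of 10 were open at an end (a peak no more than 250 bp from it), against 0 of 3 photoreceptor genes, 0 of 3 muscle genes, 3 of 4 neuron genes and 1 of 2 germline genes. The same was true of 60.5% of all protein-coding genes, so the neuron and germline shares were near that of any gene.

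Most tRNA genes lay in open chromatin. A peak was found at 241 of the 290 genes (83.1%), and 49 had none. The same window held a peak at 59.9% of all genes on these arms, most of which are far longer. Among the other genes of up to 200 bp it held a peak at 122 of 719 (17.0%), and among consecutive stretches of 573 bp, the length of a median tRNA gene with its window, at 13.3%. By class of RNA the share was 44 of 260 for microRNA genes (16.9%), 51 of 269 for snoRNA genes (19.0%) and 20 of 32 for snRNA genes (62.5%). A peak overlapped the gene itself at 234 of 290 tRNA genes (80.7%), against 7.93% of the other short genes, and 7 tRNA genes had a peak in a flank only. At the edge of the window, Glu-CTC-3-5 had its nearest peak 192 bp away and Ser-GCT-2-3 had it 182 bp away, just inside, while the peaks nearest to Val-AAC-1-1 at 251 bp and Glu-CTC-3-3 at 269 bp were just outside.

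Peaks at tRNA genes were also high for the list. Their median pileup was 102 fragments (quartiles 58 and 177, range 21 to 804), where all peaks had a median of 56 (quartiles 33 and 109). Their median fold was 6.48 (quartiles 3.68 and 10.9), against 3.61 (2.45 and 6.33) for all peaks and 5.23 (3.22 and 8.38) for peaks at ends of protein-coding genes. A fold at or above the median of the list was found at 264 of the 346 peaks (76.3%). The local background differed less, with a median of 14.1 fragments against 12.5. A share of the tRNA peaks also lay within 250 bp of an end of a protein-coding gene, and the 265 that did not had a median pileup of 96 and a median fold of 6.22. Taking the highest peak of each gene, the 241 tRNA genes had a median of 160 fragments, against 131 at snRNA genes, 89 at snoRNA genes, 75.5 at microRNA genes and 98 at ends of protein-coding genes. Neighbouring tRNA genes often share a peak: 210 peaks lay in the window of 1 tRNA gene, 103 of 2, 27 of 3 and 6 of 4, so the values of neighbours are not independent.

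The summits stood beside the tRNA genes and seldom on them. Of the 346 summits 273 (78.9%) lay 1 to 50 bp beyond an edge of the nearest tRNA gene, 30 (8.67%) lay inside a gene, and 2 (0.578%) lay 51 to 100 bp away. The median distance from the edge was 21 bp, with quartiles of 12.25 and 28 bp, and tRNA genes themselves had a median length of 73 bp (range 71 to 186). Summits in the first 50 bp were also the highest, with a median pileup of 122 fragments against 66 for those inside a gene and 71.5 for those more than 250 bp away. Counted around the centre of each of the 290 genes, a bin of 50 bp held 73.1 summits per 100 genes at 50 to 100 bp, 5.52 at 100 to 150 bp, and 5.79 on average between 1000 and 2000 bp. Between 200 and 400 bp the bins rose again to 12.1 to 15.5, above that distant level. The bins from 500 to 600 bp held 13.8 and 12.1, and every bin between 150 and 1000 bp was above that level, the lowest at 6.9.

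**Figure D1:**
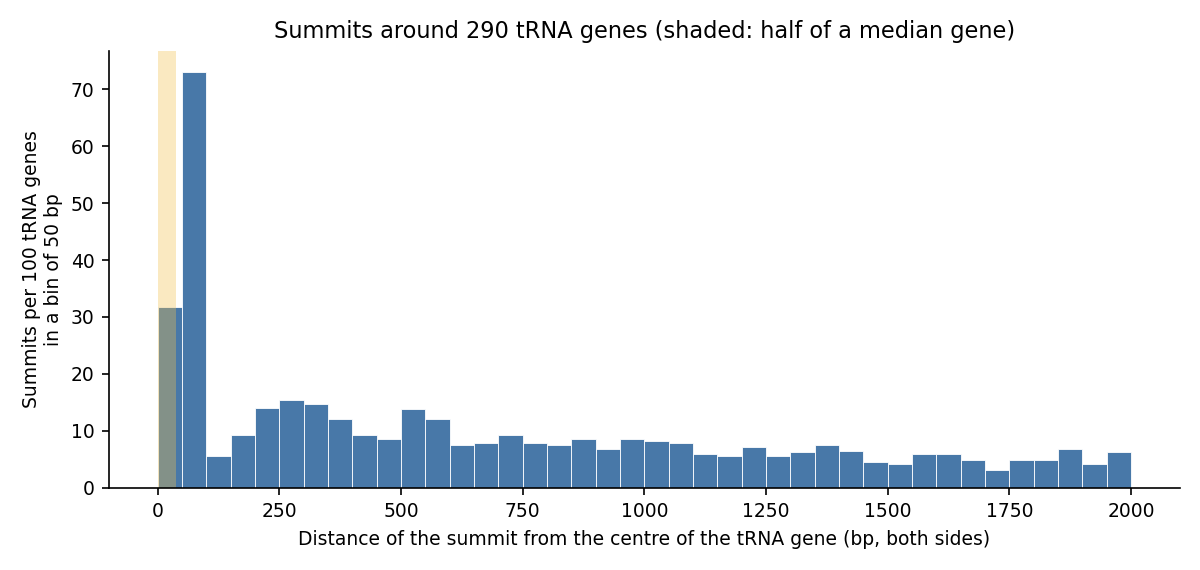
Summits per 100 tRNA genes (vertical axis) in bins of 50 bp by distance from the centre of the gene in bp (horizontal axis), both sides added; the shaded band spans the gene from its centre to its edge at the median length. The bar at 50 to 100 bp, just beyond the edge, reaches 73.1 and the next bar falls to 5.52. The bars between 200 and 400 bp stand at 12.1 to 15.5, and those from 500 to 600 bp at 13.8 and 12.1. Summits beside neighbouring tRNA genes are counted in the bars too.

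A summit within 50 bp of an edge was found at 221 of the 290 genes (76.2%), against 28 of 719 other short genes (3.89%). At 169 genes only 1 edge had such a summit, the left edge on the chromosome's numbering at 88 and the right edge at 81. At 52 genes (17.9%) both edges had one, a median of 110.5 bp apart (quartiles 104 and 119), against 3 of the 719 other short genes (0.417%). The gene table used here gives no strand, so edges could not be sorted into the 5′ and the 3′ side, and no sequence is printed because none of the genome was used here.

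Where both edges had a summit, the heights were unequal as a rule. The higher summit had a median of 3.06 times the pileup of the lower (quartiles 2.04 and 4.95, where 1 is the least possible), and the ratio was at least 2 at 39 of the 52 genes. The largest ratio was at Arg-ACG-1-5, one of the genes for the arginine tRNA with anticodon ACG, with 22 fragments on the left and 194 on the right, 99 bp apart (8.82 times). At Asp-GTC-1-4, an aspartate tRNA gene, 134 fragments stood 8 bp before the left edge and 642 stood 32 bp after the right edge (4.79 times). Which of the unequal sides precedes the gene was not determined.

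**Figure D2:**
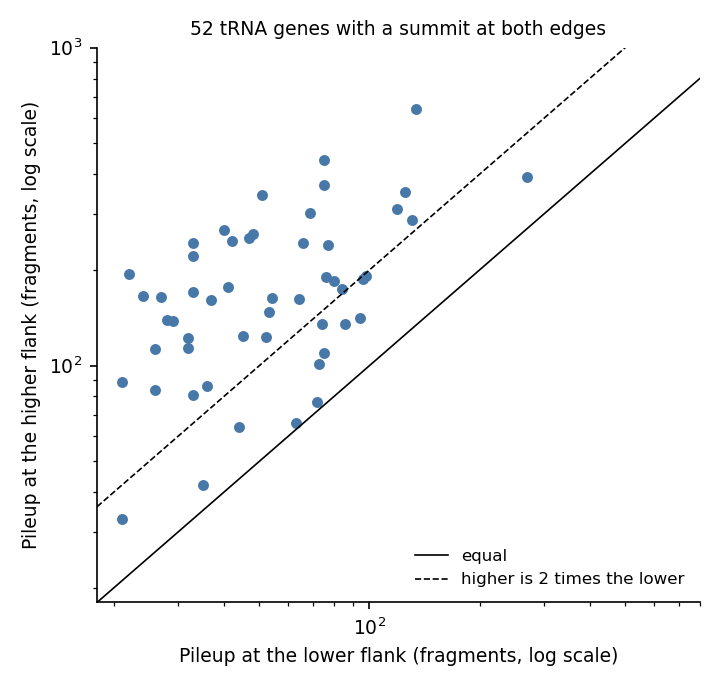
Pileup of the higher summit (vertical axis, fragments, log scale) against that of the lower summit (horizontal axis, fragments, log scale) for the 52 tRNA genes with a summit within 50 bp of both edges, 1 point per gene. The solid line marks equal heights and the dashed line a ratio of 2, on or above which 39 points lie.

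Among the tallest peaks were genes for leucine, aspartate, isoleucine, phenylalanine and proline tRNAs. The highest, at 804 fragments (95% interval 749 to 862, fold 26.7), lay inside Leu-CAA-2-3, a gene with no tRNA gene within 5 kb, at chr3R:23601333-23601455. A further summit of 511 fragments (468 to 557) stood in the same interval, 246 bp from that gene. Asp-GTC-1-5 at chr2L:8541761-8541832 had 702 fragments (651 to 756, fold 21.8) and its neighbour Asp-GTC-1-4 at chr2L:8541552-8541623 had 642 (593 to 694), both in 1 interval in the space between the pair. Of this pair, Asp-GTC-1-4 lay 113 bp from an end of the protein-coding gene CG17834. Asp-GTC-1-5 lay 315 bp from an end of Sema1a, which encodes a semaphorin that guides axons.

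Further into Sema1a stood the lone genes Phe-GAA-1-3 with 532 fragments (488 to 579) and Asp-GTC-1-6 with 513 (470 to 559), 28741 and 51942 bp from the gene's nearest end. Ile-TAT-1-1 and Ile-TAT-1-2, the isoleucine pair at chr3L:769503-770462, had 665 and 505 fragments. Both stood on a high local background of 55.3 and 77.0 fragments, so their folds of 11.8 and 6.49 were lower than those of the other tall peaks. Pro-AGG-1-2 on 2L had 502 fragments (459 to 548). Pro-CGG-2-3 on 3L, inside the gene not and 85 bp from an end of it, had 443 (403 to 486). By fold the leading peak was another, at the glycine gene Gly-TCC-2-2 on 2R, with 358 fragments over a background of 10.9 (fold 30.3).

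Every amino acid was served by at least 1 tRNA gene with a peak. The genes covered 21 amino acids, selenocysteine among them, with 44 anticodons. All copies had a peak for asparagine (10 of 10), isoleucine (11 of 11), histidine (5 of 5) and initiator methionine (6 of 6), the tRNA that starts translation. Serine had 13 of 20 and arginine 19 of 26, which together made up 14 of the 49 genes without a peak. By anticodon the lowest shares were Ser-AGA with 3 of 8, Arg-TCG with 4 of 10 and Lys-TTT with 3 of 6. Each of these amino acids also had an anticodon with all copies open, as Ser-TGA had 2 of 2, Arg-ACG 10 of 10 and Lys-CTT 13 of 13.

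Heights overlapped widely between amino acids. The median of the highest peak per gene ran from 303 fragments for phenylalanine (7 genes with a peak, 68 to 532) and 246 for aspartate (12 genes, 41 to 702) down to 122 for histidine and 113 for glycine (19 genes, 38 to 364). These are the tallest peaks in each gene's window, and the 364 stood nearest to the tryptophan gene Trp-CCA-2-6. The single selenocysteine gene, SeC-TCA-1-1 at chr2R:11357564-11357650, had 75 fragments (59.0 to 94.0, fold 6.96) and lay 27 bp from the end of iotaTry, a trypsin gene. Of the initiator genes, iMet-CAT-1-1 and iMet-CAT-1-2 shared a peak of 110 fragments on 2R. On 3L, iMet-CAT-1-3 had 146 and iMet-CAT-1-4 and iMet-CAT-1-5 shared a peak of 222. The 110 stood nearest to iMet-CAT-1-2 and the 222 to iMet-CAT-1-5. Beside their own edges iMet-CAT-1-1 had up to 64 and iMet-CAT-1-4 had 112. The lone iMet-CAT-2-1, inside the matrix protease gene Mmp2, had 80 (63.4 to 99.6).

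**Figure D3:**
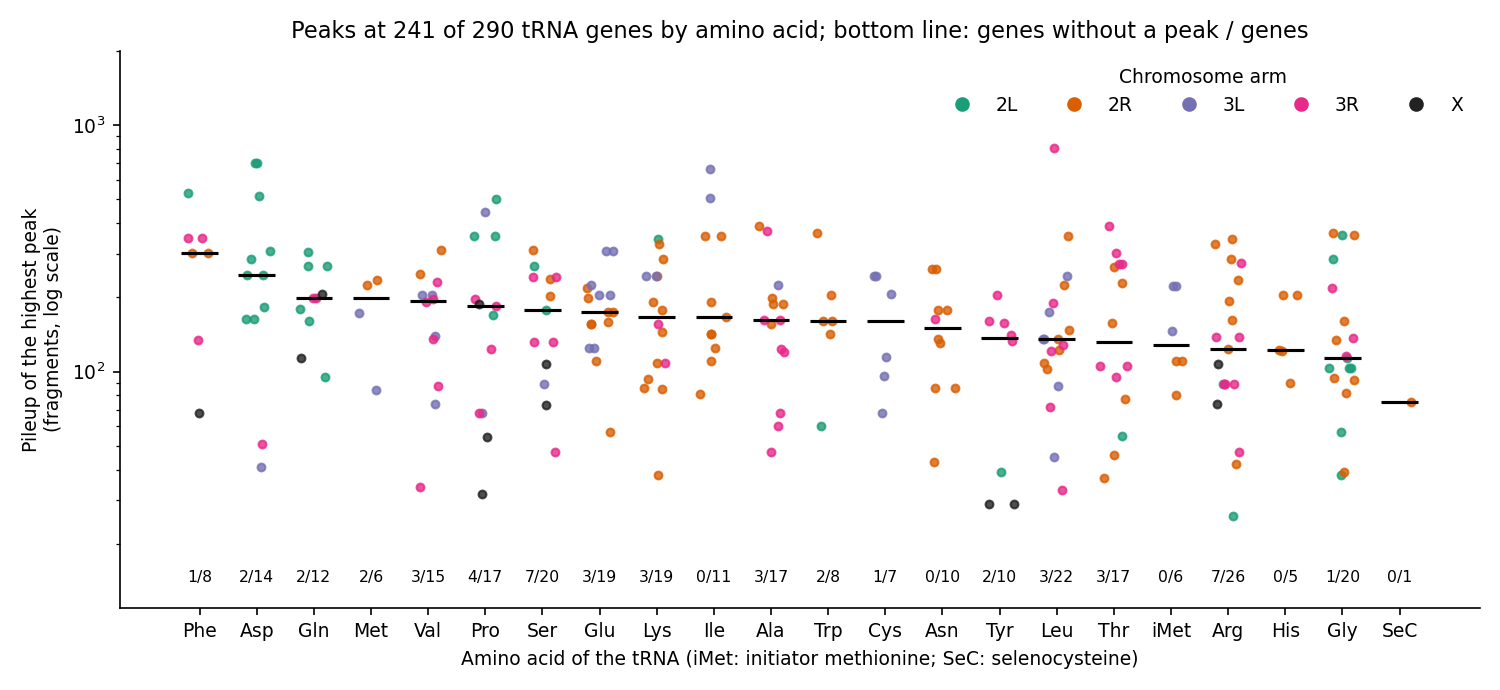
Pileup of the highest peak of each tRNA gene with a peak (vertical axis, fragments, log scale) by amino acid (horizontal axis, in order of the median); each point is a gene, coloured by chromosome arm, black bars are medians, and the bottom line gives genes without a peak of all genes. Points of most amino acids spread over the same range, with Leu-CAA-2-3 at 804 as the highest.

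Copies with the same mature sequence differed in the height of the tallest peak in their windows. The 84 families held 38 of a single copy and 25 of 5 or more copies, and all copies had a peak in 10 of those 25. Within these 25 families the highest copy had a median of 5.4 times the pileup of the lowest copy with a peak (range 1.44 to 17.1). The widest spread was in Asp-GTC-1, where 11 of 12 copies had a peak, from 41 fragments at Asp-GTC-1-10 to 702 at the Asp-GTC-1-4 and Asp-GTC-1-5 pair. Lys-CTT-1 and Gly-GCC-1 each had a peak at 13 of 13 copies. The tallest peaks in their windows ran from 38 to 330 and from 38 to 364 fragments. In the windows of the 6 copies of Glu-TTC-1 they stayed between 110 and 219. The 330 stood nearest to Arg-ACG-1-4, the 364 to Trp-CCA-2-6 and the 110 to iMet-CAT-1-2. Beside their own edges Lys-CTT-1-1 had 286, Gly-GCC-1-2 had 359 and Glu-TTC-1-1 had 68. The lower limit of 110 for Glu-TTC-1 thus does not hold for summits beside its own copies. By number of copies, 28 of 38 single-copy genes had a peak (73.7%), 49 of 63 in families of 2 to 4 (77.8%), 98 of 120 in families of 5 to 9 (81.7%) and 66 of 69 in families of 10 or more (95.7%). How reads that match several copies were treated is not given in the sources used here, and the part of that choice in these heights was not tested.

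Genes with an intron were open about as often as the others. Introns are known in fly tRNA genes for Tyr-GTA, Leu-CAA and Ile-TAT, and these were the 16 genes longer than 90 bp. Of them 13 had a peak (81.2%), against 228 of 274 shorter genes (83.2%). Their median pileup was 157 fragments against 161. Their median fold was lower, 6.63 against 10.2, over a median local background of 19.7 fragments against 13.8.

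The share of tRNA genes with a peak varied between chromosome arms, and X had the lowest. On 2R 95 of 98 genes had a peak (96.9%), on 2L 37 of 41 (90.2%), on 3L 37 of 48 (77.1%), on 3R 60 of 79 (75.9%) and on X 12 of 24 (50%). All genes together varied less between the same arms, from 56.0% on 2L to 62.3% on 2R, with 58.7% on X. The median of the highest peak per gene was 73.5 fragments on X and 138 to 205 on the other 4 arms. All peaks on X had a median pileup of 60, within a few fragments of the 53 to 59 of those 4 arms.

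**Figure D4:**
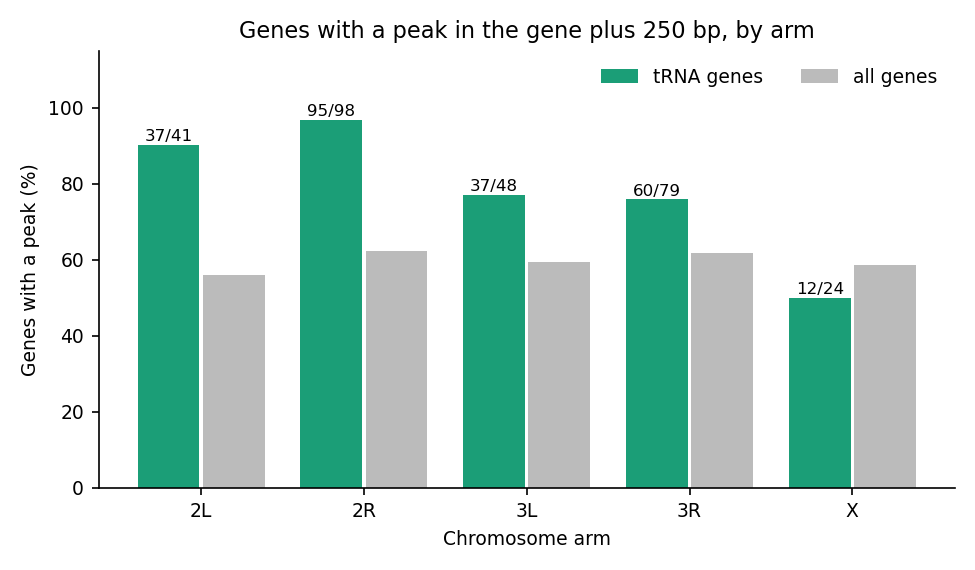
Share of genes with a peak in the gene plus 250 bp on each side (vertical axis, percent) by chromosome arm (horizontal axis), for tRNA genes (green, with genes with a peak over genes) and for all genes (grey). The tRNA bars run from 96.9% on 2R to 50% on X, and the grey bars stay between 56.0% and 62.3%.

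The low X value came mostly from a single region of serine and arginine genes. At chrX:14014814-14117810, over 103 kb, 14 tRNA genes lay together with 12 genes of the Stellate (Ste) tandem repeat between them, and 3 of the 14 had a peak. Only 2 peaks lay in that span, 1.94 per 100 kb against 23.9 per 100 kb on X. The stretch from 14015539 to 14200062 (185 kb) held no peak of any kind and contained 11 tRNA genes. Elsewhere on X 9 of 10 tRNA genes had a peak, and the gene without was Phe-GAA-1-1. Serine and arginine together had a peak at 4 of 15 genes on X and at 28 of 31 elsewhere, so the low counts of these amino acids came mostly from this place. Without X the share of all tRNA genes was 229 of 266 (86.1%). Stellate genes are near-identical copies, and the part of read placement there was not tested.

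Clusters were then formed by joining tRNA genes less than 5 kb apart. This gave 144 units, of which 76 were lone genes and 68 were clusters of 2 to 11 genes. At least 1 member had a peak in 121 of the 144 units (84.0%). All members had one in 52 of the 68 clusters, none in 6, and some in 10. The gaps closest to the limit were 4886 bp between Leu-CAG-1-4 and Leu-CAG-1-5, inside it, and 5071 bp between Leu-CAA-1-1 and Ile-AAT-1-8, outside it. A cluster held a single amino acid in 49 cases and a single family in 37.

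Lone genes had a lower median height than clustered genes. A peak was found at 59 of 76 lone genes (77.6%, median 113 fragments) and at 182 of 214 clustered genes (85.0%, median 163). Genes in clusters of 2 had a median of 199 fragments, those in clusters of 3 had 180 and those in larger clusters had 138. Clustered genes can take the same peak, as above, so a tall peak counts for several of them. Lone genes spanned the whole range, from Leu-CAA-2-3 at 804 down to Arg-CCT-1-1 at 26 (17.0 to 38.1, fold 2.47) on 2L.

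All 11 genes of the largest cluster on 2R had a peak. It lies at chr2R:6161535-6171759, and 8 of its genes sit inside EcR, the gene of the ecdysone receptor. The tallest peak stood at its right end. Arg-ACG-1-2 had 42 fragments. Asn-GTT-1-4 had 43 in its window, with the summit inside Asn-GTT-1-5, and 32 beside its own edge. Asn-GTT-1-5, Asn-GTT-1-6 and Lys-CTT-1-2 shared a peak of 86. Lys-CTT-1-3 had 85, Lys-CTT-1-4 and Ile-AAT-1-1 shared 192, Arg-ACG-1-3 had 123, and Lys-CTT-1-5 and Arg-ACG-1-4 shared 330. In all, EcR held 13 tRNA genes in these and nearby clusters, and 13 of 13 had a peak.

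The other cluster of 11 genes, at chr3R:17617761-17631750, was open over its left part only. Val-CAC-1-1 and Pro-TGG-1-1 shared a peak of 197 fragments, and Pro-TGG-1-2 and Ala-AGC-2-3 shared 123. The 197 stood nearest to Pro-TGG-1-1, and Val-CAC-1-1 had 82 beside its own edge. The tallest peak in the window of Ala-AGC-2-2 had 120 and stood 24 bp from Pro-TGG-1-2. Summits inside Ala-AGC-2-2 itself had 67 and 55. Ala-AGC-2-4 had 60, and Thr-AGT-1-5 and Thr-AGT-1-6 shared 105. The 105 stood nearest to Thr-AGT-1-6, and Thr-AGT-1-5 had 59 beside its own edge. The 3 genes at the right end of the cluster, Val-AAC-1-2, Ala-AGC-2-5 and Pro-TGG-1-3, had no peak. Copies of 1 family thus stood on both sides of this divide, with Ala-AGC-2 and Pro-TGG-1 present in each.

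Next by size, with ties taken by arm and position, was a cluster of 7 genes at chr2R:13430282-13432794. The whole cluster lies inside ATP8A, which encodes a phospholipid flippase. All 7 had a peak. Ile-AAT-1-3 had 124 fragments and Leu-CAA-1-1 had 108. The windows of Leu-CAA-2-1, Ile-AAT-1-4 and Ile-AAT-1-5 shared a peak of 355, with its summit 25 bp from Leu-CAA-2-1. Ile-AAT-1-6 and Ile-AAT-1-7 shared 142. Beside their own edges Ile-AAT-1-4 had 239 and 77 fragments, Ile-AAT-1-5 had 148 and Ile-AAT-1-6 had 134. A cluster of the same size on X, chosen for display after its values were seen, had a peak at 3 of 7. There Arg-TCG-2-1 and Ser-CGA-1-1 shared 107 fragments, Ser-CGA-1-2 had 73, and Arg-TCG-3-1 to Arg-TCG-3-4 had none. The 107 stood 31 bp from Arg-TCG-2-1, and no summit lay within 50 bp of Ser-CGA-1-1.

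**Figure D5:**
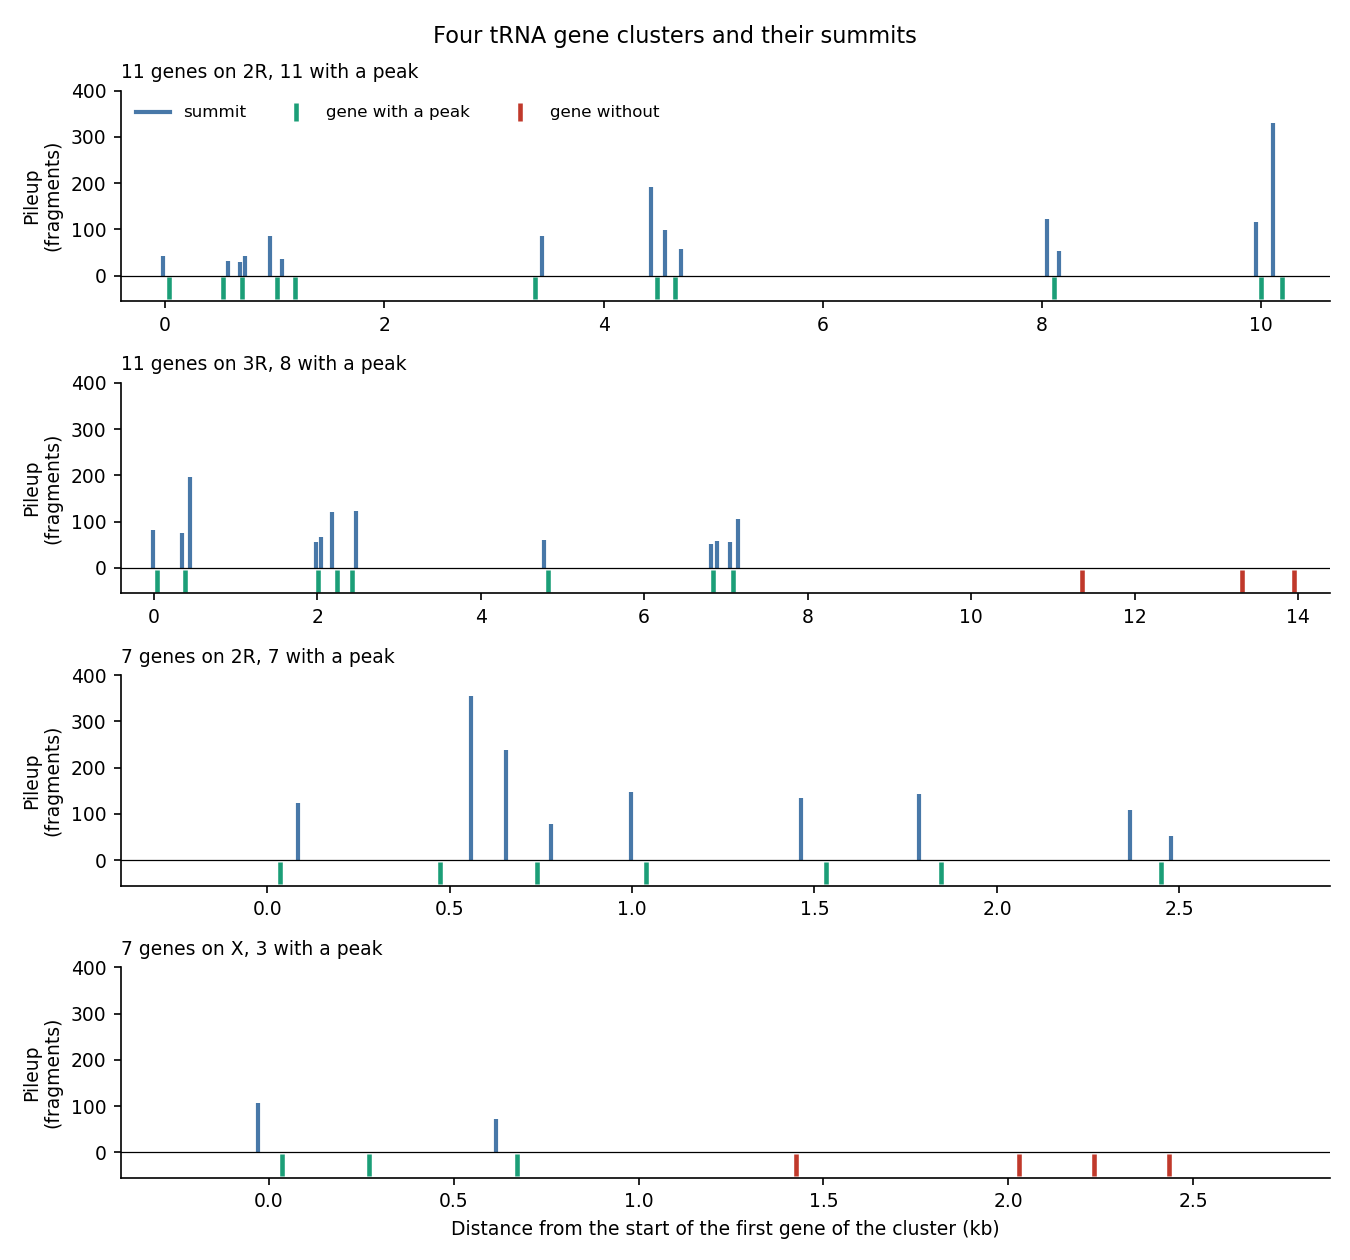
Maps of the 3 largest tRNA gene clusters and of a 7-gene cluster on X: distance from the start of the first gene in kb (horizontal axis) and pileup of each summit in fragments (vertical axis, blue lines), with ticks below for genes with a peak (green) and without (red). Summits stand beside or on most green ticks, but Lys-CTT-1-2 on 2R and Ser-CGA-1-1 on X have none within 50 bp. A green tick means that a peak interval reached the window of the gene. The red ticks are the 3 at the right end on 3R and the 4 at the right end on X.

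Of the 49 genes without a peak, 40 had no peak within 1000 bp. By alphabet on each arm, the first were Arg-TCT-3-1 and Leu-TAA-3-1 on 2L, 5264 and 14041 bp from the nearest peak. On 2R they were Gln-CTG-1-1, inside mrj and 888 bp away, and Trp-CCA-1-1, inside Lrt and 2796 bp away. On 3L they were Cys-GCA-4-1, inside mub and 3244 bp away, and Gln-TTG-1-1 at 5798 bp. On 3R they were Ala-AGC-1-1 at 1845 bp and Ala-AGC-2-5 at 6070 bp, and on X Arg-TCG-1-1 at 88181 bp and Arg-TCG-3-1 at 665 bp. Among the 6 clusters with no peak the largest was that of Pro-AGG-1-5, Pro-AGG-1-6, Pro-AGG-1-7 and Leu-CAA-2-2 at chr3L:13211214-13214233. The other Pro-AGG copies, by contrast, were 4 of 4 with a peak and had a median of 354 fragments.

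The share with a peak was similar for tRNA genes inside and outside other genes. Of the 290 genes 134 lay wholly inside at least 1 of 72 protein-coding genes, and 114 of the 134 had a peak (85.1%, median 176 fragments). Some lay inside more than 1 host, so the counts of hosts overlap. Of the 156 outside, 127 had a peak (81.4%, median 142). Host genes with most tRNA genes after EcR were Ptp61F, a tyrosine phosphatase gene, with 6 of 9 open, ATP8A with 8 of 8, and Cht7, a chitinase gene, with 6 of 6. By distance to the nearest end of any other gene, 45 of 52 had a peak within 250 bp (86.5%, median 199), and 51 of 66 beyond 5000 bp (77.3%, median 138).

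Other RNA genes of Pol III had a peak in the gene plus 250 bp each side in 7 of 9 cases, with the 5S rRNA repeat and snRNA:U6atac counted apart. The same window held a peak at 59.9% of all genes and at 17.0% of genes of up to 200 bp other than tRNA genes. A peak overlapped the gene itself at 4 of the 9, against 7.93% of those short genes. The highest peak was at snRNA:7SKa, whose RNA holds the elongation factor P-TEFb inactive, with 453 fragments (412 to 497, fold 17.5). Its copy snRNA:7SKb had no peak. RNaseMRP:RNA, which cuts ribosomal RNA precursors, had 179 fragments, and RNaseP:RNA, which trims the 5′ end of tRNA precursors, had none. The spliceosomal U6 genes on 3R had 21 fragments at snRNA:U6:96Aa and 99 at each of snRNA:U6:96Ab and snRNA:U6:96Ac, which shared a peak. The 7SL genes, which encode the RNA of the signal recognition particle, had peaks of 156 and 108 fragments in their windows, and neither peak overlapped the 7SL gene itself. Both peaks also counted for the lysine tRNA genes Lys-TTT-2-1 and Lys-TTT-2-4, with summits 15 and 24 bp from the edges of these. The gene for snRNA:U6atac, which was not in the list, had 169. Of the 96 annotated 5S rRNA genes 1 had a peak, the first of the repeat, of 119 fragments, and the 4 annotated 5S pseudogenes had none, and no peak lay within the repeat from its first gene to its last. With the 5S genes and pseudogenes added, and still without snRNA:U6atac, the count was 8 of 109 (7.34%). The part of read placement in the 5S repeat was not tested.

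Protein genes of the Pol III and tRNA lists also had peaks at their ends. A peak lay within 250 bp of an end at 60.5% of the 13922 protein-coding genes. The list of Pol III machinery held its subunits, TFIIIB, regulators and other genes such as l(2)37Cd, Pbp45, Pbp49 and Pbp95. In that list 21 of 21 genes had a peak at an end. Their median was 89 fragments, near the 98 of all protein-coding genes with a peak. The highest fold was at Maf1, a repressor of Pol III, with 344 fragments (309 to 382, fold 31.6), and the next at Polr3A, the largest subunit, with 110 (90.4 to 133, fold 10.2). Of the genes for tRNA processing and export 19 of 19 had a peak (median 134). Among the highest folds there were RtcB, the ligase of tRNA splicing, with 170 fragments, and RNaseZ, which trims the 3′ end, with 167.

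Aminoacyl-tRNA synthetases, which charge each tRNA with its amino acid, had a peak at an end in 31 of 32 cases (96.9%, median 80 fragments). LeuRS-m, the mitochondrial enzyme for leucine, had 325 fragments (fold 16.7) and LysRS had 180 (fold 16.6). The gene without a peak was GluRS-m. With 3 synthetase genes whose symbols are spelled in another way and were added later, the count was 34 of 35 (97.1%). Genes of this kind are used in all cells, and no match for housekeeping genes was made, so nothing is read from these shares about tRNA genes.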

How the data were processed

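ATAC-seq peaks of S2 cells (2 libraries, 1 group) were used as deposited, with 1 line per summit. The submitters' processing notes list Bowtie2, MACS2, deepTools and build dm6, with no version or setting. Fold enrichment was used as the authors deposited it, a ratio of pileup to the caller's local background after 1 is added to each. Values of −log10 p and −log10 q, with 1.30 as the lowest −log10 q, and the summit offset in bp were likewise taken as the authors deposited them. In 65 lines without a summit the interval's middle was used. Whether fragments or extended reads were piled up, how cuts were shifted, what was done with duplicates and with reads of repeated sequence, and any pooling of libraries are not given in the labels. The first 2 can move a summit by some bases or more.

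Pileups were solved as whole numbers from the fold and the −log10 p under a Poisson tail, within a tolerance of 0.001 (largest residual 0.000521), and 1000 of 1000 simulated pileups were recovered. Peak names in the list supply the word fragments. Exact Poisson intervals are too narrow if mates were counted singly.

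Gene bounds came from RefSeq on Release 6 plus ISO1 MT (dm6 is the same assembly), in a table of starts and ends only. Families are the symbols without the copy number. Planned results on promoter motifs and on strand were therefore not made. Of the list names 2 had no match, and no gene matched by a name that starts with TFIIIC.

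Members and lists were chosen with earlier results of these data known. The genes named are those nearest to the 10 highest peaks, all members of the 3 largest clusters, the first 2 by alphabet without a peak on each arm, selenocysteine and initiator genes, the highest and lowest lone genes, the other Pol III genes, and in protein lists the 2 of highest fold and those without a peak. Other names, families, hosts and the X region were chosen after their values were seen. Alternatives were other windows, join distances, thresholds and merged lines. Tools were Python 3.11.15, numpy 2.4.6, pandas 2.3.3, scipy 1.17.1 and matplotlib 3.10.9.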

Additional observations from a re-analysis of the deposited data

How the results depend on the processing

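The share of tRNA genes with a peak (83.1% as reported) was 77.2% (224 genes) when only peaks with a fold at or above the median of the list were used, and for tRNA genes inside protein-coding genes it was then 77.6% (104 genes). With that threshold the median pileup was 134 fragments and the median fold 8.02. With a −log10 q of at least 10 they were 123 and 7.42, and with lines of 1 interval merged, which left 226 peaks, they were 134 and 8.25. A window of 1000 bp gave a median fold of 5.6. The other Pol III RNA genes with a peak numbered 8 of 109 with 5S and without snRNA:U6atac. They numbered 4 with the gene alone, and none of those 4 was a 5S gene. With a window of 100 bp, or with the summit required in the window, they numbered 5. Counting these 3 settings, 58 values stayed within a binomial 95% interval (on ranks for medians) or, for counts, within 1.5 times. That interval takes genes or peaks as units, which are not replicates. Over 109 genes it was so wide that the fall from 8 to 4 counted as having stayed. Searches for an A box with 0 or 2 mismatches were not run because no sequence was used here. No paired analysis was possible because a single list covers both libraries and its columns carry no replicate, and for the same reason no library could be left out. Depth limits the lowest peaks: the interval on 26 fragments runs from 17.0 to 38.1, and a gene without a peak may hold signal below the caller's threshold.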

Other observations

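Genes annotated as tRNA pseudogenes were no members of the 290. Of 5 such genes 4 had a peak in the same window, which held a peak at 83.1% of tRNA genes and 59.9% of all genes. Among genes of up to 200 bp other than tRNA genes the share was 17.0%. On 2R, His-GTG-2-1Psi and Glu-CTC-5-1Psi lay 244 and 324 bp from the nearest tRNA gene. The summit on His-GTG-2-1Psi itself had 90 fragments, and the highest peak in its window, of 121, stood on the far side of the tRNA gene His-GTG-1-4. The peak of 119 fragments at Glu-CTC-5-1Psi is the one that also counts for the first 5S rRNA gene. Ile-AAT-2-1Psi, 692 bp from a tRNA gene on X, had 44 fragments. Glu-CTC-6-1Psi, also on X, had 38 fragments with no tRNA gene nearer than 684606 bp. Thr-AGT-3-1Psi on 3L had no peak.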
